A study of Mus musculus with 2 samples.

Results

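The nuclear genes of oxidative phosphorylation were compared between mouse embryonic stem (ES) cells and embryonic forebrain. All genes were taken from the RNA-seq tables whose symbol begins with Ndufa, Ndufb, Ndufc, Ndufs, Ndufv, Uqcr, Cox4 to Cox8 or Atp5, together with *Sdha*, *Sdhb*, *Sdhc*, *Sdhd* and *Cycs*, and symbols marked as pseudogenes were left out. The rule gave 91 of the 29311 listed genes and used no measured value. Of these, 82 encode structural subunits, with 36 in complex I, 4 in complex II, 8 in complex III, 1 for cytochrome c, 18 in complex IV and 15 in complex V. The others are 4 assembly factors of complex I (*Ndufaf1* to *Ndufaf4*), 4 genes that share the prefix but encode no subunit (*Cox4nb*, *Atp5s*, *Atp5sl* and the single-exon copy *Atp5l2*) and a second identifier of *Ndufb8* that overlaps the first. *Cox6a2*, *Cox8c* and the 13 subunits encoded by mitochondrial DNA were not analysed here.

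The first sample was the wild-type ES cell line E14, which the study grew without feeder cells in medium with serum and LIF, a cytokine that keeps ES cells undifferentiated. The second was forebrain dissected from wild-type B6CBAF1/J embryos at E10.5, a stage of mid-gestation, when its wall consists mostly of dividing neural progenitors. Both were untreated. The labels give the same number of cells as the source of each RNA, whereas the study's methods describe forebrain RNA taken from single embryos. With 1 sample of each, there was no replicate check and no test, so every difference below is one between these 2 libraries, and the strain, the culture and the tissue cannot be told apart.

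Oxidative phosphorylation takes place in the inner mitochondrial membrane. Complex I oxidises NADH and complex II oxidises succinate, complex III passes their electrons to cytochrome c, and complex IV hands them to oxygen. The protons pumped on the way drive complex V, the ATP synthase. Complexes I, III, IV and V combine subunits of the nuclear and the mitochondrial genome, whereas complex II is entirely nuclear. Around the conserved core subunits lie further ones, called supernumerary, and some of those in complex IV exist as isoforms that are known from muscle, testis, lung or cells short of oxygen. ES cells are known for a high rate of glycolysis.

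The authors call the deposited values RPKM, which are reads per kilobase of exon with a scaling per sample that the sources used here do not give. Low values fell near whole multiples of the worth of 1 read, which put 42707681 inferred reads on genes for ES cells and 59754074 for forebrain. Intervals given below are exact 95% Poisson intervals on these inferred reads and cover counting error only. The listed genes had a median RPKM of 48.9 in ES cells and 62.4 in forebrain. All 7 listed markers of ES cells were at least 2-fold higher in the library of that label, with a summed RPKM of 39922 against 160, and all 7 listed forebrain markers were at least 2-fold higher in forebrain, at 9253 against 207, with *Lhx2* listed at 0 in ES cells. The forebrain also held RNA of other cells. Its 5 erythroid markers summed to 675754 RPKM against 330 in ES cells, its 4 markers of head mesenchyme to 14678 against 41.6, and its 4 endothelial markers to 1587 against 602, and none of these markers was at 0 in either library. Of the endothelial sum in ES cells, *Pecam1* made up 551, compared with 317 in forebrain, where the other 3 were higher. The 4 neuronal markers summed to 7714 in ES cells, of which *Stmn2* made up 6910, and to 4699 in forebrain, where the other 3 were higher. In such bulk samples fewer cells of a type and less RNA per cell cannot be told apart, and the part of these cells in the differences below was not tested.

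Most of the subunit genes lay at close levels in both samples. Within 1.5-fold of each other were 64 of the 82 structural subunits, against 35.8% of the 20701 genes with a mean RPKM of at least 10, a limit that all 91 genes passed. The genes of this comparison were not matched for level and lay lower, with medians of 181 RPKM for ES cells and 215 for forebrain. Those of the subunits were 1975 and 1629. Whether other genes of a similar level lie as close was not tested. At least 2-fold higher in ES cells were 9 of the 91 genes (9.89%) and 8 of the 82 subunits (9.76%), against 21.2% of all genes tested. At least 2-fold higher in forebrain were 2 of the 91 genes (2.2%) and 1 of the 82 subunits (1.22%), against 25.2% of all genes tested. Among protein-coding genes the corresponding shares were 17% and 28.7%. At a limit of 1.5-fold, the counts were 17 of the 91 for ES cells and 5 for forebrain, against 30.5% and 33.6% of all genes and 25.4% and 38.1% of protein-coding genes, of which 36.5% lay within 1.5-fold. Across the 82 genes, the order of the levels was alike in both samples, with a Spearman correlation of 0.96 between 2 libraries.

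The subunits leaned towards ES cells. The median log2 ratio of RPKM + 1, ES cells over forebrain, was 0.25 for the 82 subunits, with an interquartile range of 0.04 to 0.51, and −0.03 for all genes tested. Of the 82 subunits 62 (75.6%) were higher in ES cells, compared with 49% of all genes and 43.5% of protein-coding genes. This split depends on how the samples are scaled to each other, which the sources used here do not give. After scaling both libraries to equal sums of RPKM, the median of all genes shifted by −0.27, 39 of 82 subunits (47.6%) were higher in ES cells and their median was −0.02. It was 56 of 82 (68.3%) per inferred read on genes and 69 of 82 (84.1%) after division by the upper quartile. The sums of RPKM over all genes tested were 62297406 in ES cells and 51558400 in forebrain, a ratio of 1.21. Over protein-coding genes tested they were 11726975 and 11675724, a ratio of 1. In these sums, the difference that the scaling removes lies almost wholly outside protein-coding genes. The protein-coding sum of forebrain includes its erythroid RNA, however, of which 5 markers held 675754 RPKM against 330 in ES cells. Which scaling is right was not tested. Relative to all genes, the median of the subunits was higher by 0.28 as deposited, and by 0.44 against protein-coding genes alone. The sum of RPKM over the 82 subunits was 278138 in ES cells and 221557 in forebrain, a ratio of 1.26. Together, *Atp5a1*, *Atp5b* and *Cox4i1* held 33% of the first sum and 27.3% of the second.

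**Figure D1:**
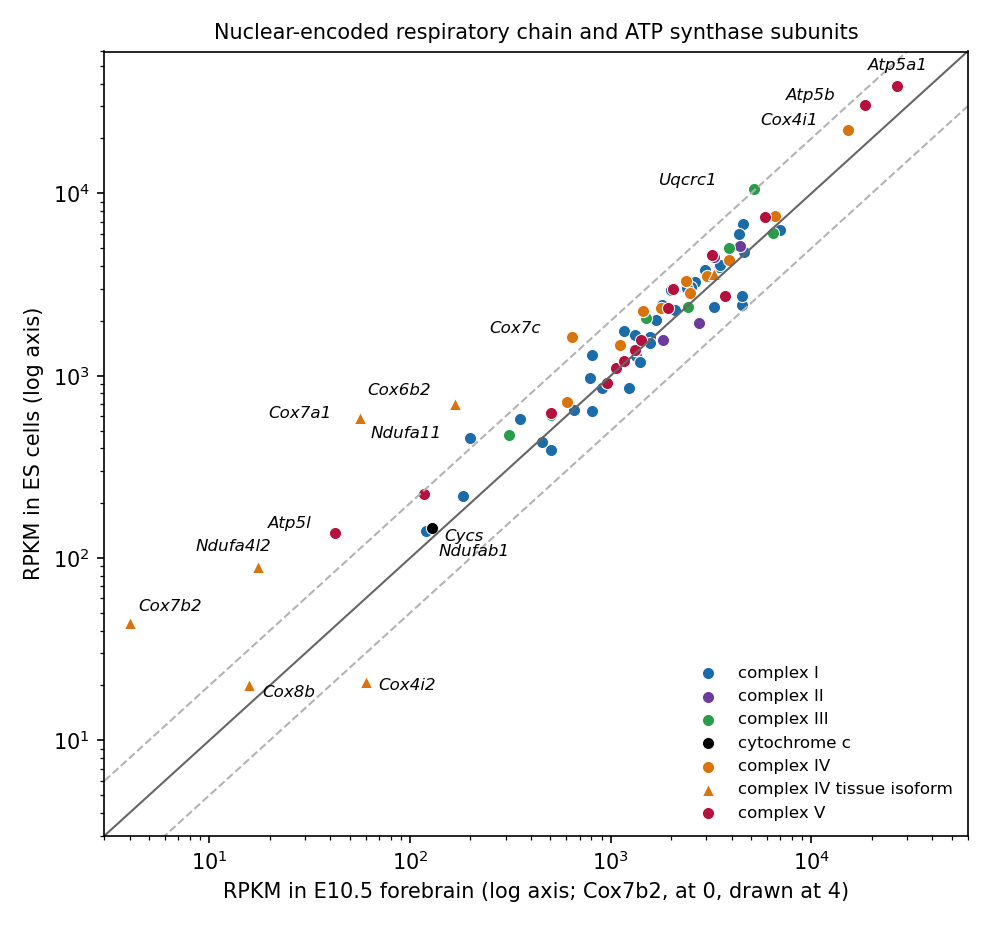
RPKM of the 82 structural subunits in ES cells (vertical axis) against E10.5 forebrain (horizontal axis), both on log axes, with 1 point per gene, coloured by complex and with triangles for tissue isoforms and paralogues of complex IV. The solid line marks equal values and the dashed lines 2-fold differences; most genes lie between the dashed lines, whereas *Cox7a1*, *Cox6b2*, *Ndufa4l2*, *Cox7b2* and *Cox4i2* lie outside and at low levels.

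Complex I, the largest of the complexes, lay, by the median as deposited, nearest to equal levels after complex II. Its 36 subunits had a median log2 ratio of 0.19 and 23 were higher in ES cells, but the median was −0.08 with 14 higher after scaling to equal sums. Their summed RPKM was 80135 in ES cells and 74520 in forebrain. Among the 7 core subunits, *Ndufv1*, which binds NADH and the flavin that takes its electrons, had 6772 RPKM in ES cells and 4546 in forebrain, the highest value of the complex in ES cells. *Ndufs1*, an iron-sulphur subunit, had 3789 and 2951. *Ndufs3*, a subunit of the matrix arm, was the lowest of the core subunits in both samples, with 650 and 659, and all 7 were within 1.5-fold between the samples.

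Of the 29 supernumerary subunits of complex I, only *Ndufa11* was beyond 2-fold. This membrane subunit, encoded at chr17:56857184-56863671 (NCBIM37, the build of all gene coordinates here), had 457 RPKM in ES cells and 200 in forebrain, 2.29-fold apart (2.07 to 2.53). Several others were higher in forebrain without reaching 2-fold. *Ndufa2* had 2437 RPKM in ES cells and 4491 in forebrain, a log2 ratio of −0.88, and *Ndufa3* had 2746 and 4506, a log2 ratio of −0.71. *Ndufa12* followed with −0.52 and *Ndufc2* with −0.46. At the other end, *Ndufb4* had 578 and 352 RPKM, a log2 ratio of 0.71, and *Ndufs6* had 1293 and 803, a log2 ratio of 0.69. Genes of this single complex thus lay on both sides of equality. The lowest gene of the complex in both samples was *Ndufab1*, which encodes the mitochondrial acyl carrier protein, with 140 RPKM in ES cells and 120 in forebrain.

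The assembly factors of complex I, which help to build it and are not part of the finished enzyme, were split. *Ndufaf2* was higher in forebrain, with 1028 RPKM in ES cells and 1872 in forebrain. *Ndufaf1* was level, with 958 and 991. *Ndufaf3*, with 385 and 287, and *Ndufaf4*, with 544 and 393, were higher in ES cells, and none of the 4 was beyond 2-fold.

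Complex II consists of 4 subunits, all of which were within 1.5-fold. *Sdha*, the flavoprotein that oxidises succinate, had 4499 RPKM in ES cells and 3268 in forebrain, and *Sdhd*, a membrane anchor, had 5175 and 4418. As deposited, both were higher in ES cells beyond counting error. *Sdhb*, the iron-sulphur subunit, had 1939 in ES cells and 2744 in forebrain, and *Sdhc*, the other anchor, had 1571 and 1821, so that both of these were higher in forebrain beyond counting error. The median log2 ratio of the complex was 0.01 with 2 of 4 higher in ES cells, or 1 of 4 after scaling to equal sums, and the median was −0.26 and −0.09 when samples were scaled to equal sums or per inferred read on genes.

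Complex III had a median log2 ratio of 0.32, and 6 of its 8 nuclear subunits were higher in ES cells, or 4 of 8 after scaling to equal sums. *Uqcrc1*, a large subunit on the matrix side encoded at chr9:108838660-108851685, had 10595 RPKM in ES cells, the highest of the complex there, and 5167 in forebrain. It was 2.05-fold higher in ES cells, with an interval of 2.00 to 2.10 that touches the limit. Its partner *Uqcrc2* had 6053 in ES cells and 6453 in forebrain, where it was the highest of the complex. The 2 proteins lie side by side in the finished enzyme, and the order of their RNAs differed between the samples. *Uqcrfs1*, the Rieske iron-sulphur protein, had 3473 and 3025. *Uqcrq*, a small supernumerary subunit, was lowest in both samples, with 470 and 311.

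Cytochrome c, the carrier between complexes III and IV, is encoded by *Cycs* in somatic cells. It had 145 RPKM in ES cells and 129 in forebrain, from 404 and 534 inferred reads. Its interval of 0.99 to 1.29 for the ratio includes 1. The level is low among the ubiquitous subunits, of which only *Ndufab1* and *Atp5l* were lower in ES cells and *Ndufab1*, *Atp5g1* and *Atp5l* in forebrain. The copies of *Cycs* in the genome are described further on. *Cyct*, the cytochrome c of testis, which is not among the 91 genes, had 26.1 RPKM from 14 reads in ES cells and 4.38 from 4 reads in forebrain. It made up 15.2% of the summed RPKM of the pair in ES cells and 3.29% in forebrain.

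Complex IV had the largest median log2 ratio of the 5 complexes, 0.40, and 17 of its 18 genes were higher in ES cells, or 11 of 18 after scaling to equal sums. All 11 ubiquitous subunits were higher in ES cells as deposited. *Cox4i1*, a large subunit that contacts the catalytic core, had 22370 RPKM in ES cells and 15261 in forebrain, the highest values of the complex. *Cox6c* was the lowest ubiquitous subunit, with 716 and 608. Only *Cox7c*, a small subunit at chr13:86184420-86186509 that crosses the membrane, was beyond 2-fold, with 1622 and 643, 2.52-fold apart (2.32 to 2.75). *Ndufa4*, first assigned to complex I and later found in complex IV, had 4318 and 3895 and was counted here.

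**Figure D2:**
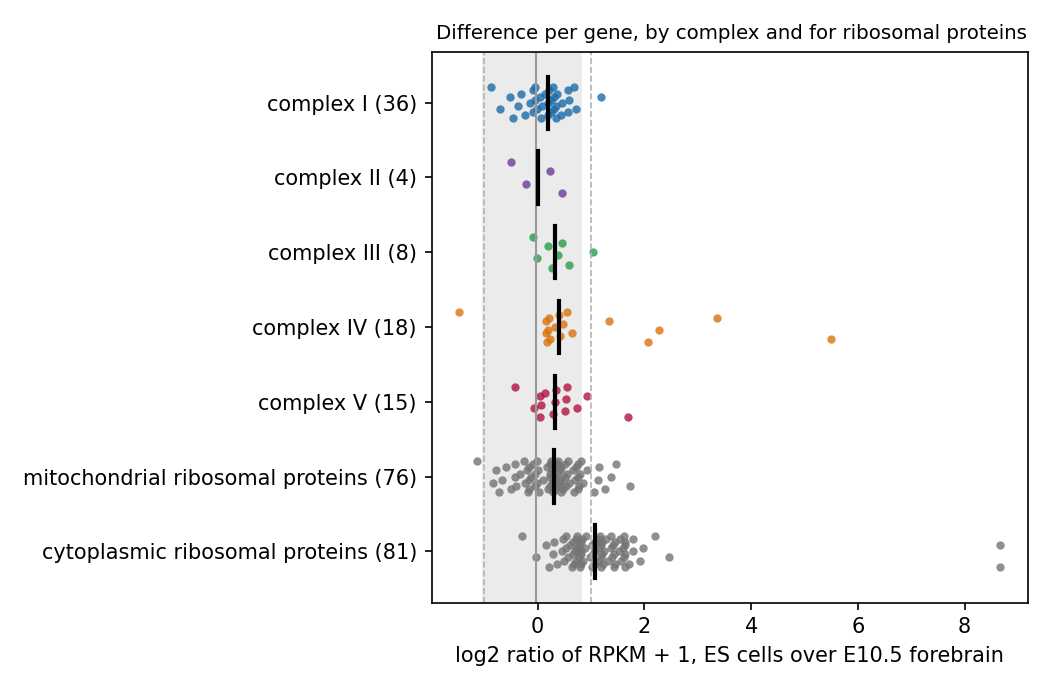
The log2 ratio of RPKM + 1, ES cells over E10.5 forebrain (horizontal axis), for the structural subunits of each complex and for 2 lists of ribosomal proteins, with 1 point per gene, the number of genes in brackets and a black bar at the median. The grey band spans the quartiles of all genes tested, its line marks their median of −0.03 and the dashed lines mark 2-fold; as deposited, complexes I to V have medians of 0.19, 0.01, 0.32, 0.40 and 0.32, and cytoplasmic ribosomal proteins 1.08. *Cox7b2*, the point furthest to the right for complex IV, had no read in forebrain, so that its position depends on the added 1.

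The largest differences among the subunits were those of complex IV isoforms. Of the 7 tissue isoforms and paralogues, 4 (57.1%) were at least 2-fold higher in ES cells and 1 (14.3%) in forebrain, against 21.2% and 25.2% of all genes tested. *Cox7a1*, the isoform of heart and skeletal muscle, had 585 RPKM (501 to 678) from 174 reads in ES cells and 56.3 (36.4 to 83.1) from 25 reads in forebrain, and was 10.4-fold higher in ES cells (6.81 to 16.5). Its ubiquitous counterpart *Cox7a2* had 3507 and 3003. *Cox7a1* held 14.3% of the summed RPKM of the pair in ES cells and 1.84% in forebrain, or 7.58% and 0.890% when the paralogue *Cox7a2l* was included. *Cox8b*, which is also known from heart and skeletal muscle, had 20.2 RPKM from 6 reads in ES cells and 15.8 from 7 reads in forebrain, and its interval for the ratio, 0.355 to 4.45, includes 1. It held under 1% of the pair with *Cox8a* in both samples, 0.711% and 0.634%.

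Both listed testis isoforms were higher in ES cells. *Cox6b2*, at chr7:4703395-4704696, had 703 RPKM (628 to 786) in ES cells and 168 (138 to 202) in forebrain, 4.19-fold apart (3.37 to 5.24), and held 8.57% and 2.48% of the pair with *Cox6b1*. *Cox7b2*, at chr5:71834062-71939444, had 43.9 RPKM (25.8 to 67) from 19 reads in ES cells and no read in forebrain. Against a floor of 3 reads, which corresponds to 4.54 RPKM, its value in ES cells was 9.68-fold higher. That ratio is not a minimum, since the exact interval of the ratio began at 6.97. Its ubiquitous counterpart *Cox7b* had 1481 and 1118, so that *Cox7b2* held 2.88% of the pair in ES cells.

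The 2 paralogues that are known to respond to low oxygen differed in opposite directions. *Ndufa4l2*, at chr10:126951994-126954208, had 89 RPKM (69.5 to 113) in ES cells and 17.5 (10.4 to 26.4) in forebrain, 5.09-fold apart (3.14 to 9.07). *Cox4i2*, known from lung and placenta and located at chr2:152579908-152590773, had 20.9 RPKM (10.7 to 34.5) from 13 reads in ES cells and 60.3 (45.8 to 78) from 58 reads in forebrain, where it was 2.88-fold higher. Its interval for the ratio of ES cells over forebrain, 0.168 to 0.618, reaches below a 2-fold difference. *Cox4i2* was the only subunit at least 2-fold higher in forebrain. Both remained minor forms, since *Ndufa4l2* held 2.02% and 0.447% of its pair, and *Cox4i2* 0.0934% and 0.394%. *Cox7a2l*, a paralogue that joins complexes III and IV into supercomplexes, had 3634 and 3266 and was level with the ubiquitous subunits.

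The isoform pairs were distinct in sequence. The coding parts of the pairs in complex IV were 67.1% to 72.3% identical in the annotated transcripts, and none of *Cox7a1*, *Cox6b2*, *Cox7b2*, *Cox8b*, *Ndufa4l2* or *Cox4i2* had a near-identical copy elsewhere in the genome. The start of the aligned coding sequences of *Cox7a2* and *Cox7a1* is shown because *Cox7a1* carried the largest ratio with reads in both samples. Capitals mark bases that differ or have no counterpart in the other gene, 67 of 180 aligned positions.
Cox7a2: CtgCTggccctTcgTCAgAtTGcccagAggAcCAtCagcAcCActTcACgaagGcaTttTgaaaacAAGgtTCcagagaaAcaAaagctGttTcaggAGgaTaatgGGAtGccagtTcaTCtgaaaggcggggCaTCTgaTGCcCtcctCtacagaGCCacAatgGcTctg
Cox7a1: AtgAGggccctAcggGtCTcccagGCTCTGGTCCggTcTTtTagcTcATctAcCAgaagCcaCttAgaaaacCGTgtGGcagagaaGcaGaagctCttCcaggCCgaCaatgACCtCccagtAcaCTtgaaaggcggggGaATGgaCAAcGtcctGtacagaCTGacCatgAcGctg
Identical runs are short throughout the stretch. The *Cox7a1* gene lies on chromosome 7 at chr7:30969189-30971047 on the plus strand, and *Cox7a2* at chr9:79603047-79607660 on the minus strand (NCBIM37).

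**Figure D3:**
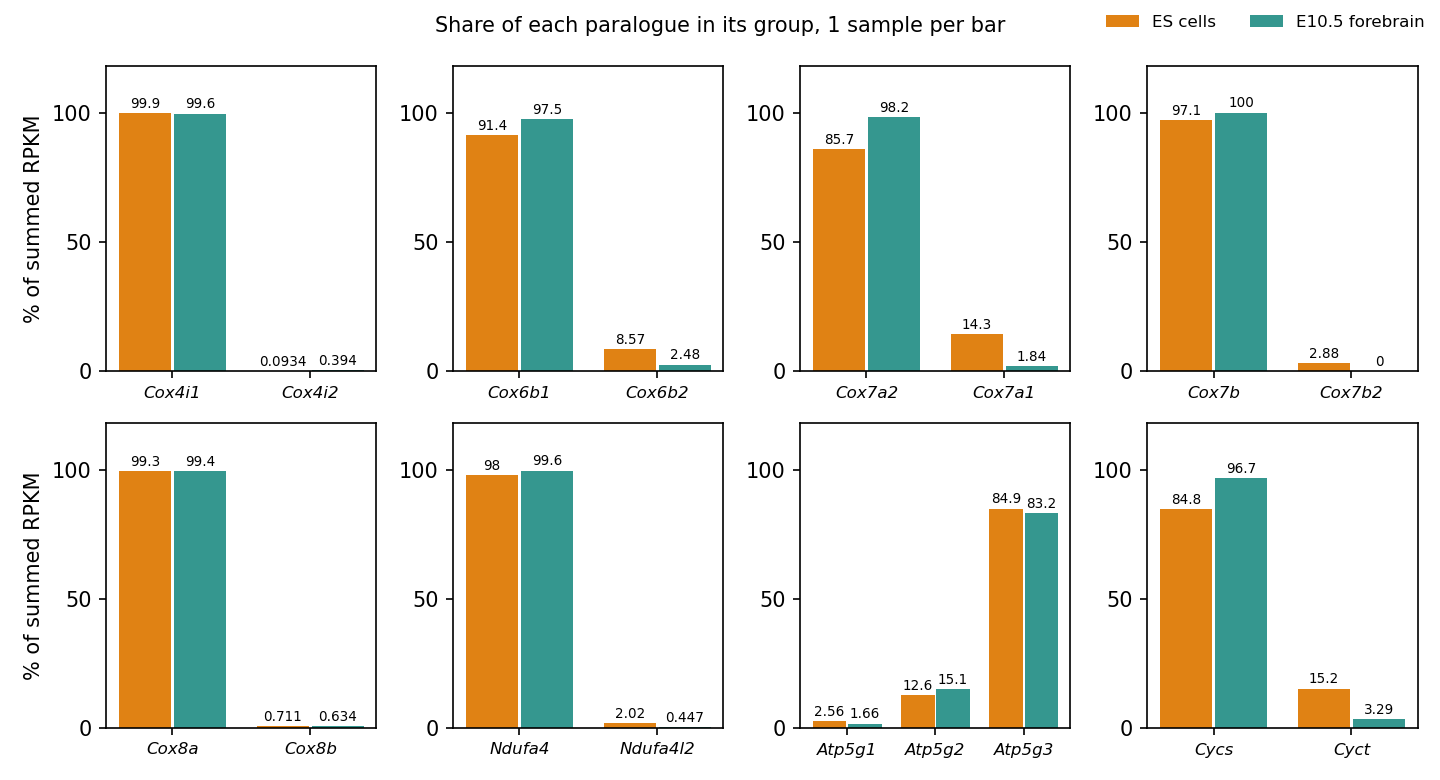
Share (%) of each gene in the summed RPKM of its group of paralogues, with an orange bar for ES cells and a green bar for E10.5 forebrain, 1 library each and therefore without error bars. The minor forms *Cox7a1* (14.3% and 1.84%), *Cox6b2* (8.57% and 2.48%) and *Cyct* (15.2% and 3.29%) took larger shares in ES cells, while the 3 genes for subunit c of complex V kept similar shares.

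Complex V had a median log2 ratio of 0.32, and 13 of its 15 subunits were higher in ES cells, or 9 of 15 after scaling to equal sums. Its summed RPKM was 96586 in ES cells and 68571 in forebrain, a ratio of 1.41, the highest of the 5 complexes. The subunits of the catalytic head came first. *Atp5a1*, the alpha subunit, had 38702 RPKM in ES cells and 26729 in forebrain, the highest values of all 91 genes, and *Atp5b*, the catalytic beta subunit, had 30683 and 18510. Both alternate around the head in equal number, and the ratio of *Atp5b* between the samples was 1.66 (1.64 to 1.67) and that of *Atp5a1* 1.45 (1.43 to 1.46). The subunits of the rotor shaft and its foot lay lower. *Atp5c1* (gamma) had 4588 and 3195, *Atp5d* (delta) had 1387 and 1324, and *Atp5e* (epsilon) had 2743 and 3704. *Atp5e*, at a log2 ratio of −0.43, was the furthest towards forebrain in the complex.

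The proton-carrying ring of complex V is made of subunit c, for which 3 genes encode the same mature protein. *Atp5g3* had 7394 RPKM in ES cells and 5860 in forebrain, *Atp5g2* 1096 and 1067, and *Atp5g1* 223 and 117. *Atp5g3* held 84.9% and 83.2% of their sum. The shares of *Atp5g2* were 12.6% and 15.1%, and those of *Atp5g1* 2.56% and 1.66%. *Atp5g1* was the gene nearest to 2-fold among those below it, with a ratio of 1.91 (1.73 to 2.11).

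The remaining calls in the Atp5 group were a subunit gene and 2 genes of other kinds. *Atp5l*, subunit g at the interface between 2 ATP synthase complexes, had 138 RPKM (105 to 179) from 58 reads in ES cells and 42.1 (27.2 to 61.1) from 26 reads in forebrain, 3.28-fold apart (2.06 to 5.51). These were the lowest values of the complex and the smallest numbers of reads among the ubiquitous subunits, which otherwise reached 106299 reads in ES cells and 102252 in forebrain. *Atp5l2*, annotated as a pseudogene with a single exon on chromosome 11, had 132 RPKM from 42 reads and 38.9 from 19 reads. *Atp5s*, which encodes a coupling factor and no subunit of the finished enzyme, was 2.10-fold higher in forebrain, with 48.9 RPKM from 59 reads in ES cells and 103 from 186 reads in forebrain. Its interval for the ratio of ES cells over forebrain, 0.347 to 0.638, reaches below a 2-fold difference.

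*Atp5l* and *Atp5l2* cannot be told apart with confidence. Their first 180 coding bases are shown because the pair accounts for 2 of the 9 genes at least 2-fold higher in ES cells. The capital marks the position that differs in this stretch.
Atp5l: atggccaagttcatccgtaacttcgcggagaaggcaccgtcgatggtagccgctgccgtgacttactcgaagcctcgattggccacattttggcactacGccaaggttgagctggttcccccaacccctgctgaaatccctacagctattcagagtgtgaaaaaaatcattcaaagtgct
Atp5l2: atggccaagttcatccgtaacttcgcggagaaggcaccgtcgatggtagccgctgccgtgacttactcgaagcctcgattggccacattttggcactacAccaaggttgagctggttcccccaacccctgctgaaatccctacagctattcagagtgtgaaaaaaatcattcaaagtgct
Over the whole coding part 310 of 312 bases were identical (99.4%). The differences were G100A and C206G, given as the base in *Atp5l*, the position from 1 at the start codon and the base in *Atp5l2*. A read that covers neither position matches both genes. How the authors treated reads that match several places is not given in the sources used here, so that the values of both genes are uncertain. *Gm10221*, a further listed copy that is 99.8% identical to *Atp5l*, had 143 and 44 RPKM.

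Such copies are common in these genes. A near-identical copy was counted where a member's longest transcript matched another place in the genome at 90% identity or more over at least 50% of its length. By this measure, 28 of the 82 subunits had 1 or more copies, 70 in all. When only the coding part was searched, 41 of the 82 had copies, 110 in all, led by *Atp5l* with 14, *Cycs* with 9 and *Atp5h* and *Cox7c* with 7 each. Of the 8 subunits at least 2-fold higher in ES cells, *Atp5l*, *Cox7c* and *Ndufa11* had coding copies and 5 did not. Of these 5, 4 were tissue isoforms of complex IV and the other was *Uqcrc1*. The single subunit higher in forebrain, *Cox4i2*, had none.

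Genes with more coding copies had lower levels. Their ratios between the samples hardly rose or fell with that number, but fewer of them lay within 1.5-fold. The 35 ubiquitous subunits without a coding copy had a median RPKM of 3061 in ES cells and 3003 in forebrain. The 32 with 1 to 4 copies had medians of 1387 and 1199, and the 8 with 5 or more had 617 and 504. Within 1.5-fold between the samples were 33 of the 35, 24 of the 32 and 5 of the 8, against 35.8% of all genes tested. At least 2-fold higher in ES cells were 1 (2.86%), 1 (3.12%) and 2 (25%) of them, against 21.2% of all genes tested. Across the 75 ubiquitous genes, the Spearman correlation of the number of copies with RPKM was −0.55 in ES cells and −0.59 in forebrain, and with the log2 ratio it was 0.13. With copies counted over the whole transcript the correlation with RPKM was −0.21 in ES cells and −0.25 in forebrain, and the coding measure was chosen after seeing the data. These correlations are across genes that share both libraries and are given as a description. The part of the copies in these low values was not tested.

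**Figure D4:**
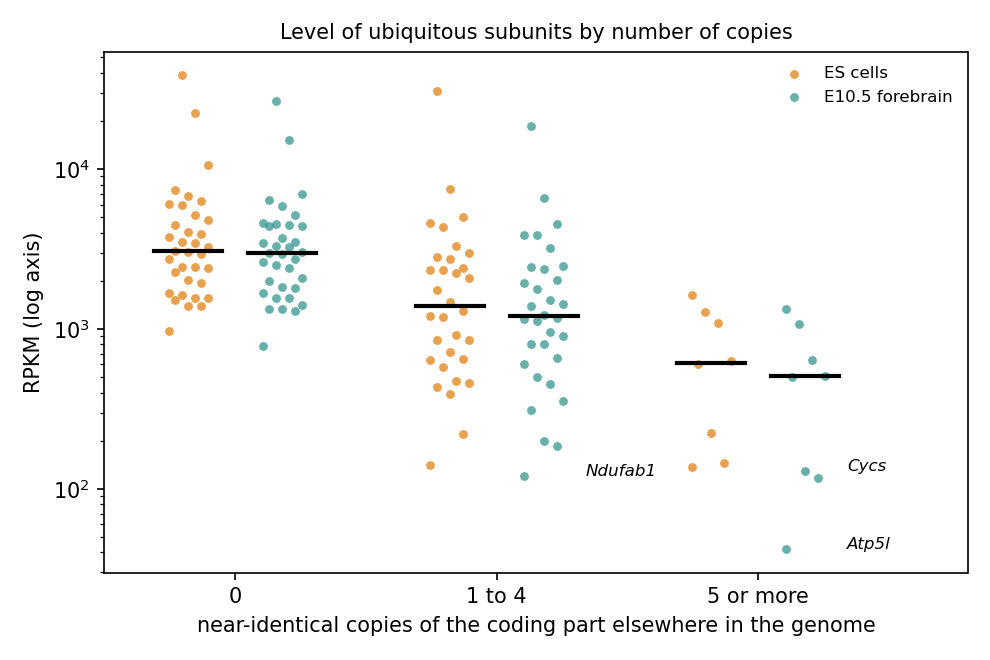
RPKM (log axis) of the 75 ubiquitous subunits in ES cells (orange) and E10.5 forebrain (green), grouped by the number of near-identical copies of their coding part (horizontal axis), with 1 point per gene and sample and black bars at the medians. The medians are 3061 and 3003 without copies, 1387 and 1199 with 1 to 4, and 617 and 504 with 5 or more.

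At 36 of the copies the tables list a gene of its own, mostly annotated as a pseudogene, for 23 of the members. In 29 of these 36 the entry had a higher RPKM than the subunit gene itself in both samples. RPKM is divided by exonic length, which differs between a copy and its member, so a higher RPKM need not mean more reads. As an example, *Atp5f1* has 4105 exonic bases, whereas its copy *Gm12231* lies at chr11:54931602-54932297. The reads of copies and members were not compared. *Gm12231*, a copy of *Atp5f1* (subunit b of the stator), had 11953 and 8882 RPKM, compared with 2977 and 2039 for *Atp5f1*. *Gm5436*, a copy of *Atp5o* (the protein that joins the stator to the head), had 11697 and 9905, compared with 2342 and 1932. *Gm10231*, a copy of *Atp5g2*, had 2098 and 2082. The ratios between the samples followed the member. The log2 ratio of the copy was within 0.25 of the member's in 27 of 36 entries, the median difference was 0.05 and the largest 1.31. The levels of these members and of their copies are therefore both uncertain.

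**Figure D5:**
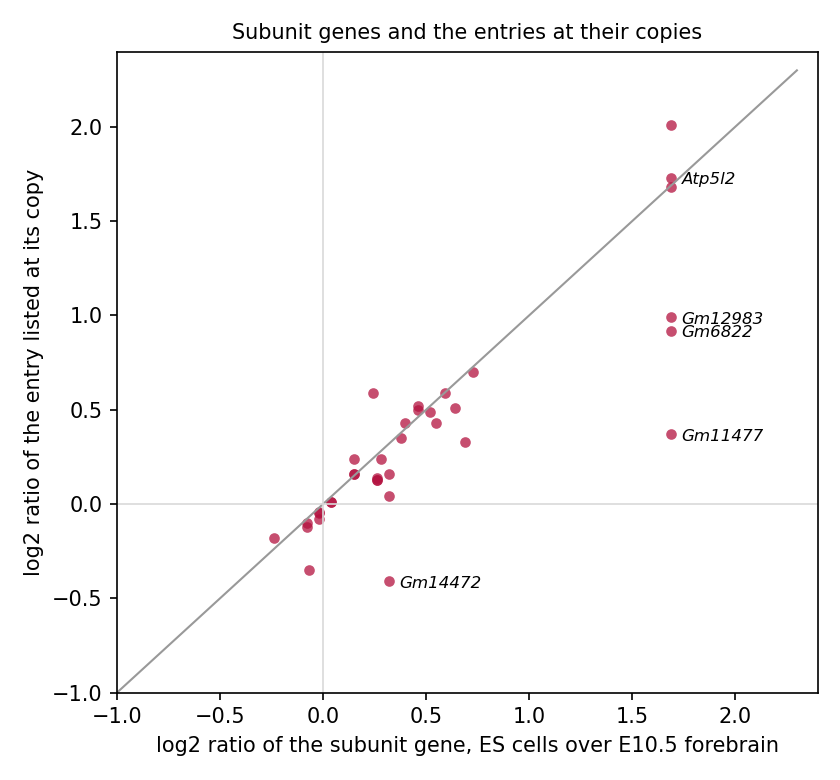
The log2 ratio of RPKM + 1, ES cells over E10.5 forebrain, of 36 entries listed at near-identical copies (vertical axis) against that of the subunit gene they copy (horizontal axis), with 1 point per entry and a line at equal ratios. Most points lie along the line, with a median distance of 0.05; the labelled exceptions are 1 copy of *Atp5h* (*Gm14472*) and 3 of *Atp5l*, and *Atp5l2* lies beside its member at 1.73 against 1.69.

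Overlapping genes are a further limit. Exons of 18 of the 82 subunits overlap those of another annotated gene, on the opposite strand for 17 and on the same strand for 3. The overlap was 39% of the exonic bases for *Ndufb6* and 38.7% for *Cox5a*. Among the subunits beyond 2-fold, only *Ndufa4l2* overlaps another gene, by 14 bases or 1.46% of its exonic length. The libraries were strand-specific, but whether the counting used the strand is not given in the sources used here.

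Promoter letters were compared for the genes that had a window. RefSeq promoter windows of 300 bases, 250 upstream and 50 downstream of the start, were matched for 69 of the 82 subunits (GRCm38.p6). They were searched on both strands for the letters of 3 factors known for mitochondrial genes, the consensus of NRF1 (its matches stand in capitals in the promoters printed below), CCGGAAG for ETS factors such as GABP, and GCCATNTT for YY1. The promoters with NRF1 letters belonged to 24.6% of the genes, compared with 7.17% of 17492 protein-coding genes, those with ETS letters to 23.2% compared with 12.9%, and those with YY1 letters to 24.6% compared with 7.46%. The 5 tissue isoforms and paralogues with a window include *Cox7a2l*, whose RPKM was level with the ubiquitous subunits. At least 1 of the 3 sets of letters was present in 43 of the 64 ubiquitous genes (67.2%), compared with 23.9% of all genes. None of these 5 genes held any of the 3 sets, but 5 genes are too few to compare a share. By complex, the share with any of the 3 sets of letters was 65.6% of 32 genes in complex I, 60% of 5 in complex III, 28.6% of 14 in complex IV (44.4% of the 9 without these isoforms and paralogues) and 85.7% of 14 in complex V. All 3 genes of complex II held at least 1 set. The YY1 letters stood in 12 of 32 complex I promoters (37.5%) and in none of complex II or III. The median ratio of observed to expected CpG was 0.82 for ubiquitous genes, 0.43 for the 5 tissue isoforms and paralogues and 0.57 for all protein-coding genes. These 5 ranged from 0.11 (*Cox8b*) to 0.85 (*Cox7a2l*) and the ubiquitous genes from 0.37 to 1.14, so that the ranges overlap. A match is a description of the letters and not a binding site.

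The 250 bases upstream of 3 genes are shown as examples, *Sdha* and *Cox6a1* for ubiquitous subunits and *Cox7a1* for a tissue isoform. Capitals mark the NRF1 letters and, nearest the start of *Cox6a1*, the ETS letters, as read on the strand of the gene (GRCm38.p6). The windows are chr13:74350241-74350490 (minus strand), chr5:115348959-115349208 (minus strand) and chr7:30183921-30184170 (plus strand).
Sdha: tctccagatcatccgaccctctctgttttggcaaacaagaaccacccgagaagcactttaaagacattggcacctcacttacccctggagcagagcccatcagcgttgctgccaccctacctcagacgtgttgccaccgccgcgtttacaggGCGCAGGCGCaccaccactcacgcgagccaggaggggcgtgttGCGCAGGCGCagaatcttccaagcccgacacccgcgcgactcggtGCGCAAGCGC
Cox6a1: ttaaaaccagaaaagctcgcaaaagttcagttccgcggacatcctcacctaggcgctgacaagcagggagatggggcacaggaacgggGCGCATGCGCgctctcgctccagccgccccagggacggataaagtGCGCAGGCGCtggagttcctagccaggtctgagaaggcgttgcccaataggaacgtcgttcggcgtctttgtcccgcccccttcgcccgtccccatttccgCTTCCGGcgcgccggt
Cox7a1: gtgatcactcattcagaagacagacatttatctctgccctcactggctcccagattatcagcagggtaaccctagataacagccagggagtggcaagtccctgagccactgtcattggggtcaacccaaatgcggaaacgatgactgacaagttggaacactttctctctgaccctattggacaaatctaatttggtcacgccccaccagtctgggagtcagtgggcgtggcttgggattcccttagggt
The *Sdha* window holds the NRF1 letters 98, 55 and 10 bases upstream of the start. That of *Cox6a1* holds them 162 and 117 bases upstream, with the ETS letters 16 bases upstream, and that of *Cox7a1* holds none of the 3. *Cox6a1* had 3325 RPKM in ES cells and 2381 in forebrain, within 1.5-fold like *Sdha*, while *Cox7a1* differed 10.4-fold. These 3 examples do not stand for the other genes. Of other subunits beyond 2-fold, *Ndufa11*, *Uqcrc1* and *Atp5l* held letters, whereas *Cox7c*, *Cox6b2* and *Cox7b2* held none. *Cox7a2* and *Ndufv2* held none either and were within 1.5-fold. Whether letters and ratios go together was not tested.

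Other genes of the pathway were set beside the subunits. Of 27 listed assembly factors outside the rule, 4 (14.8%) were at least 2-fold higher in ES cells and 1 (3.7%) in forebrain, against 21.2% and 25.2% of all genes tested, with a median log2 ratio of 0.17. *Cox17*, a copper chaperone for complex IV, had 650 RPKM in ES cells and 202 in forebrain. *Lrpprc*, which stabilises mitochondrial mRNAs, had 3138 and 1457, *Cox18*, which inserts a subunit of complex IV into the membrane, had 468 and 226, and *Cox11*, which delivers copper, had 451 and 222. In the opposite direction, *Lyrm7*, a chaperone of the Rieske protein, had 15.1 and 34.3, followed below 2-fold by *Cox19* with 309 and 594 and *Sdhaf1* with 270 and 494. *Cox17* and *Cox19*, which both serve complex IV, lay on opposite sides.

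Of 16 regulators of mitochondrial biogenesis, 14 passed the limit on mean RPKM, and their median log2 ratio was 0.46. Only *Esrrb*, an orphan nuclear receptor that was also among the ES cell markers, was at least 2-fold higher in ES cells, with 2140 RPKM against 5.01. That is 7.14% of the 14, with 0 in forebrain, against 21.2% and 25.2% of all genes tested. *Lonp1*, a protease of the mitochondrial matrix, had 3610 and 1840, and *Pprc1*, a coactivator of the PGC1 family, had 424 and 235. *Nrf1* had 448 and 471. *Gabpa*, the DNA-binding subunit of GABP, had 1958 and 1137, whereas its partner *Gabpb1* had 197 and 346. The 2 genes under the limit were *Ppargc1a*, the coactivator PGC1-alpha, and *Esrrg*, its nuclear receptor partner. *Ppargc1a* had no read in ES cells and 15.3 RPKM from 124 reads in forebrain. This was 27.6-fold higher than a floor of 3 reads, with an exact interval of the ratio that began lower, at 22.2. *Esrrg* had no read in ES cells and 16 RPKM from 121 reads in forebrain, 27-fold higher than the same floor, with an interval from 21.6.

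Among 16 carriers and partners of the chain, 4 (25%) were at least 2-fold higher in ES cells and 0 in forebrain, against 21.2% and 25.2% of all genes tested, with a median log2 ratio of 0.22. Besides *Cyct*, these were *Gpd2* (1354 and 530 RPKM) and *Dhodh* (528 and 256), both of which feed electrons into the quinone pool, and the carrier *Ucp2* (308 and 151). *Etfdh*, which feeds electrons from fatty acid oxidation into the same pool, lay the other way with 262 and 435, as did *Atpif1*, the inhibitor of complex V, with 1429 and 2197, and *Slc25a4*, an ADP/ATP carrier, with 5741 and 8706. *Cyc1*, the nuclear-encoded cytochrome c1 of complex III whose symbol falls outside the rule, had 3503 and 2223.

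Ribosomal proteins gave a scale for these values. The 76 mitochondrial ribosomal proteins, which translate the subunits encoded by mitochondrial DNA, had a median log2 ratio of 0.31, close to the 0.25 of the subunits. Of these, 7 (9.21%) were at least 2-fold higher in ES cells and 1 (1.32%) in forebrain, against 21.2% and 25.2% of all genes tested. At either end were *Mrps18b*, with 1674 and 504 RPKM, and *Mrpl53*, with 767 and 1693. Of 81 cytoplasmic ribosomal proteins that passed the limit, 46 (56.8%) were at least 2-fold higher in ES cells and 0 in forebrain, against the same 21.2% and 25.2%, with a median of 1.08. In the same 2 libraries, the subunits of the respiratory chain and the mitochondrial ribosome were therefore closer to the median of all genes than the cytoplasmic ribosome was.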

How the data were processed

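Total RNA of 1 E14 ES cell sample and 1 E10.5 forebrain sample was depleted of rRNA and sequenced with strand-specific single-end libraries. The labels give a read length of 100 bp and the study's methods 50 bp. Reads were aligned by the authors to mm9 (NCBIM37) in a pipeline of HTSstation, with Bowtie 0.12.7 according to the submitters' processing notes, and the authors deposited 1 RPKM value per gene and sample. The scaling, the treatment of reads that match several places and the use of strand in counting are not given in the sources used here. A factor of 1.00001 separated the samples by the median of ratios, so that the deposited values already centre the genes above 0 in both.

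Members were found by symbol, and exonic lengths were taken from GENCODE annotation of the same build. Ratios were taken on log2(RPKM + 1), which understates the change of low genes, and genes with a mean RPKM of at least 10 were used as the background. The worth of 1 read was estimated from low values, using genes whose exons span no more than 2500 bp (1.223 and 0.8195 RPKM per kb), where 58.5% of 4981 and 59.5% of 4841 values lay within 0.05 of a whole multiple, compared with 10.0% by chance. Reads per gene were inferred from it and rounded. Intervals of folds were derived from exact binomial intervals on these reads, and a gene without reads was set to a floor of 3 reads. Near-identical copies were searched with blastn 2.17.0 in the NCBIM37 genome. Promoters and their coordinates are of RefSeq (GRCm38.p6) and were not combined with other coordinates. The windows of 13 subunits were not used.

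The members, lists and roles were chosen with earlier results of these data known. Named with values are genes beyond 2-fold, the highest and lowest of each complex, the isoform groups, *Cycs* and the Sdh genes, and in other lists the genes beyond 2-fold and the 3 furthest in each direction, except that of the ribosomal proteins the counts and 1 gene at either end of the mitochondrial list are given. A gene that this rule names is not reported here. The other genes were named after their values were seen. Alternatives were other pseudocounts, scalings, filters, fold limits and subsets of genes. The scripts ran under Python 3.11.15 with pandas 2.3.3, scipy 1.17.1 and numpy 2.4.6, and matplotlib 3.10.9 drew the figures.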

Additional observations from a re-analysis of the deposited data

How the results depend on the processing

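The median log2 ratio of the structural subunits, 0.25 as deposited, was 0.16 per inferred read on genes and −0.02 after scaling both libraries to equal sums of RPKM. Their summed RPKM ratio, 1.26 as deposited, was 1.18 and 1.04 under these scalings, 1.35 without complex I and 1.16 without *Atp5a1*, *Atp5b* and *Cox4i1*, an alternative chosen after seeing the data. The median of the subunits minus that of all genes was 0.28 and became 0.44 against protein-coding genes. The 9 genes at least 2-fold higher in ES cells became 5 with a mean RPKM of at least 100, 4 without complex IV and 17 at 1.5-fold, and 5 both without tissue isoforms and without genes that have coding copies, the latter 2 settings being chosen after seeing the data. The 2 genes at least 2-fold higher in forebrain became 1 with a pseudocount of 5, after division by the upper quartile, without complex IV or without tissue isoforms, 4 after scaling to equal sums, 0 with a mean RPKM of at least 100 and 5 at 1.5-fold. At 1.5-fold, 30.5% of all genes tested were higher in ES cells and 33.6% in forebrain. Shares of all genes beyond 2-fold were not computed for the other settings. The filter and the subsets also leave fewer genes to count. Scaling to equal sums moved the share of all genes higher in ES cells from 49% to 40%. These counts alone therefore do not show a change relative to all genes. Of the 11 genes beyond 2-fold, each computed under 6 scalings or pseudocounts, none changed direction, and 5 of 66 values fell under 2-fold, for *Atp5s*, *Ndufa11* and *Uqcrc1*. The cause of these shifts was not tested. No paired analysis was possible because each group has 1 sample. Depth limited the isoforms with few reads (*Cox8b*, *Cox4i2* and *Cox7b2*), and the levels of genes with copies are uncertain.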

Other observations

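Many of the subunit genes share their promoter region with a neighbour. Within 1000 bp of the annotated start, 20 of the 82 structural subunits (24.4%) had the start of another protein-coding gene on the opposite strand, compared with 9.99% of 14722 protein-coding genes tested. The neighbours were of several kinds. *Ndufs1* starts 3 bp from *Eef1b2*, a translation elongation factor with 59074 RPKM in ES cells and 29839 in forebrain, and *Ndufa7* starts 29 bp from *Rps28*, a ribosomal protein with 1422 and 477. *Sdhd* starts 52 bp from *Timm8b*, which encodes a chaperone of mitochondrial protein import, with 1965 and 3520.

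The subunit and its neighbour lay on opposite sides in 11 of the 20 pairs, of which 10 had the subunit higher in ES cells and the neighbour in forebrain, and on the same side in 9. As deposited, 75.6% of the structural subunits were higher in ES cells, compared with 43.5% of protein-coding genes. After scaling to equal sums of RPKM, 47.6% of the subunits were, and the pairs were not counted again under that scaling. Whether 11 opposite pairs differ from what these shares alone would give was not tested. *Sdhd* was higher in ES cells (log2 ratio 0.23) and *Timm8b* in forebrain (−0.84). *Ndufb3*, which starts 61 bp from *Fam126b*, had a log2 ratio of −0.36 and its neighbour 1.54. *Ndufa11*, the only complex I subunit beyond 2-fold, had a ratio of 1.19, and *Vmac*, 63 bp away, −0.24. *Ndufa2* and *Ik*, 108 bp apart, were both higher in forebrain, at −0.88 and −0.56. *Uqcrq*, with 470 and 311 RPKM, starts 192 bp from *Gdf9*, an oocyte growth factor gene with 3.01 and 15.1 RPKM, and *Ndufa8*, with 1680 and 1327, starts 52 bp from *Morn5*, with 1.71 and 4.59.

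Outside the subunit genes, the 2 cytoplasmic ribosomal protein genes furthest towards ES cells were *Rpl10l* and *Rpl39l*, paralogues that are known from testis. *Rpl39l* had 5752 RPKM from 3909 reads in ES cells and 13.1 from 13 reads in forebrain, and *Rpl10l* had 2143 from 1789 reads and 4.28 from 5 reads. *Cox6b2*, *Cox7b2* and *Cyct*, also known from testis, were at least 2-fold higher in ES cells too, *Cyct* from 14 and 4 reads. These genes were grouped after their values were seen.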
